A study of Mus musculus with 24 samples.

Results

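The response of the mouse hippocampus to chronic mild stress (CMS) was described from 6 of the 24 arrays of the series, 3 of CMS-treated mice and 3 of control mice, all labelled hippocampus. Of 45101 probe sets in the deposited table, 64 Affymetrix control probe sets were set aside and the other 45037 were tested. The mice were wild-type C57BL/6 males, 6 to 8 weeks old when purchased and therefore older when tissue was taken. CMS-treated mice met stressors such as cage tilt, wet bedding, restraint, tail pinching and overnight light on 6 days per week for 4 weeks. The sequence was the same for all of them, while control mice stayed in standard housing. The study gave both groups running wheel, forced swimming and tail suspension tests before CMS and weekly during it. RNA of amygdala, prefrontal and cerebral cortex was measured in the same way, on 3 CMS and 3 control arrays per area. The results of the study name 3 independent mice per group and its methods name pooled RNA, so the spread between arrays may be that of mice or of handling. Sample descriptions give age ranges that widen by a week from each sample to the next, against 1 range in the growth protocol, and age was not used.

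The hippocampus is the part of the medial temporal cortex on which memory of places and events depends, and its CA1, CA2, CA3 and dentate gyrus fields form a chain of excitatory neurons. It is rich in corticosteroid receptors and takes part in the feedback that ends the hormonal stress response. Neurons of the dentate gyrus are born throughout adult life in rodents, and this is known to be reduced by prolonged stress. The thalamus and habenula lie directly beneath the hippocampus, the choroid plexus lies along its ventricular edge, and the subiculum and cortex continue it.

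The values are on the log2 scale and each probe set is centred on its median over the 24 arrays, so 0 is the series median of that probe set and differences between probe sets say nothing of their abundance. Within a group, the median standard deviation (SD) of a probe set was 0.0401 in CMS and 0.0416 in control hippocampi. Arrays correlated at r of 0.915 to 0.928 among CMS, 0.87 to 0.921 among control and 0.774 to 0.82 between CMS and control hippocampi, across probe sets, which are not replicates. The hippocampal label held for the dentate markers Lct and Dsp, and for the lists of hippocampal fields other than CA2. Lct, an intestinal lactase used as a dentate marker in the mouse, averaged 6.93 in CMS and 7.07 in control hippocampi, against 0.01, -0.01 and 0.01 in control amygdala, prefrontal and cerebral cortex. Dsp, which codes for desmoplakin, stood at 4.76 and 4.75 in CMS and control hippocampi. Both were named after their values were seen. Over the whole dentate list, the control median was 0.441 in hippocampus, against 0.0303, -0.0692 and -0.0454 in amygdala, prefrontal and cerebral cortex. For the CA1 and CA3 lists the control hippocampal medians were 0.925 and 0.732, above those of the other areas. The CA2 median was 0.0596 in control hippocampi but 0.214 in control prefrontal cortex, so this list did not set the hippocampus apart. The median of all probe sets shifted by -0.0465 with CMS, more than the spread of most probe sets, which bears on every count of small decreases. The bacterial RNAs added as hybridisation controls averaged -1.48 ± 0.022 on the CMS arrays and -1.11 ± 0.0406 on the control arrays (SD, n = 3 each), without overlap, and the part of this in the results was not tested.

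Changes were called where limma gave a Benjamini-Hochberg adjusted p under 0.05 and the fold change was over 2. Of all probe sets, 246 (0.546%) were called higher and 47 (0.104%) lower in the CMS hippocampus. Without control replicate 1 the number called higher was 143, and the number called lower was 30 without CMS replicate 3 and 29 without control replicate 2. At the adjusted p alone, 2557 (5.68%) were higher and 15757 (35%) lower, a split of 14% against 86% that became 36.5% against 63.5% when each array was centred on its median, 42.4% against 57.6% after quantile normalization and 43.8% against 56.2% after a filter on probe sets of low variation. All 293 called probe sets had CMS and control arrays that did not overlap, as had 8.67% of all probe sets in the higher and 51.9% in the lower direction. Among the probe sets called higher, 51.2% carried no gene symbol, against 6.38% of those called lower and 20.3% of all.

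For most genes a call rested on a single probe set. The probe sets called higher named 110 genes, of which 91 had several probe sets, and 85 of these 91 had 1 called. Averaged over their probe sets, 26 of 18193 genes (0.143%) were called higher and 20 (0.11%) lower. Of the 26, 10 belonged to a list of thalamus and habenula genes, and of the 20, 5 belonged to a list of immediate early genes. In bulk tissue, fewer cells of a type and less RNA per cell cannot be told apart.

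The largest increase was that of Shox2, a homeobox transcription factor, whose probe set 1438042_at read 4.21, 3.73 and 4.45 in the CMS hippocampi, against 0.04, 0.02 and 0.01 in the controls. All CMS arrays lay far above all control arrays, which sat at the series median. The log2 fold change was 4.11 ± 0.19 (SE, limma adjusted p = 0.00242). A second Shox2 probe set, 1420559_a_at, changed by 0.33 (adjusted p = 0.203). In amygdala, prefrontal and cerebral cortex the first probe set changed by 0.04, 0.03 and -0.05, and the CMS effect of the hippocampus exceeded the mean of these by 4.10 (adjusted p = 2.43e-13).

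Tcf7l2, a transcription factor of the Wnt pathway, read 1.88, 1.97 and 1.72 in CMS and -1.30, -1.80 and -0.60 in control hippocampi at 1429428_at. The groups were more than 2 log2 units apart and 2 further probe sets of the gene were called higher, while the fourth, 1426639_a_at, changed by -0.03. Its log2 fold change was 3.09 ± 0.321 (SE, limma adjusted p = 0.00859). Patj, a scaffold protein of epithelial tight junctions, read -0.15, -0.17 and -0.20 in CMS and -2.98, -2.91 and -2.67 in control hippocampi (log2 fold change 2.68, adjusted p = 0.00136). Zic1, a zinc finger factor of dorsal neural development, read 1.02, 0.99 and 0.95 in CMS and -1.37, -1.31 and -1.40 in control hippocampi (2.35, adjusted p = 0.000144). Both probe sets of Zic1 were called higher, and the groups differed by many times their own spread.

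The other large increases were those of Ptbp1 (2.70), a repressor of neuronal splicing, Synpo2 (2.54), an actin-binding protein, Tnnt1 (2.33), the slow skeletal troponin T, Orly (2.29), Baiap3 (2.29), which takes part in exocytosis, and Ntmt1 (2.13), an N-terminal methyltransferase. For Ptbp1, Synpo2 and Orly the other probe sets changed little, and the gene means of 0.92, 0.63 and 0.51 were not called. The gene means of Ntmt1 (1.04, 2 probe sets) and Patj (1.01, 4 probe sets) were called but lay well below the probe sets named. Baiap3 read -0.11, -0.26 and -0.35 in CMS and -2.07, -3.54 and -1.97 in control hippocampi, with most of the spread among the controls. Its adjusted p of 0.0253 became 0.0685, 0.0784, 0.0829 and 0.0681 without CMS replicates 1, 2 and 3 and control replicate 1.

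Most of these increases were larger in the hippocampus than in the other areas. The CMS effect of the hippocampus was tested against the mean effect of the other 3 areas in 1 fit of all arrays, in which 344 of 45037 probe sets (0.764%) differed by more than 1 at an adjusted p under 0.05. Of the 119 probe sets called higher that match 1 gene, 72 (60.5%) exceeded the other areas in this way, as did 64 of the 126 without a symbol. These probe sets were chosen for a large change in the hippocampus, which favours such an excess. The share of all probe sets is therefore no fair reference for them. Among the 10 largest increases, Orly and Ntmt1 had differences of 0.25 (adjusted p = 0.718) and 0.13 (adjusted p = 0.531). Orly changed by 4.67, 0.23 and 1.19, and Ntmt1 by 3.73, 0.82 and 1.45, in amygdala, prefrontal and cerebral cortex. The difference from the amygdala alone was -2.39 for Orly and -1.60 for Ntmt1.

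**Figure D1:**
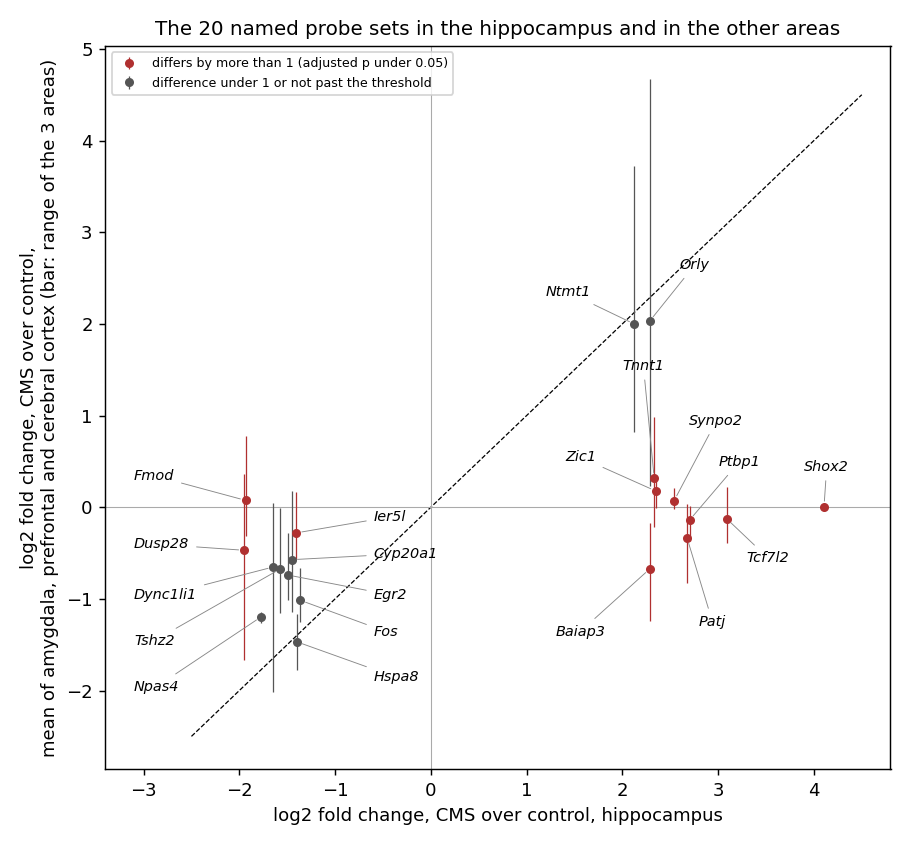
The 10 largest increases and 10 largest decreases among called probe sets, with the log2 fold change of CMS over control in the hippocampus (x axis) against the mean log2 fold change in the amygdala, prefrontal and cerebral cortex (y axis; bars span these 3 areas, the dashed line marks equality). Shox2 lies at 4.11 in the hippocampus and near 0 elsewhere, whereas Orly, Ntmt1 and Hspa8 lie near the line of equality.

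The largest decrease was that of Dusp28, a member of the dual-specificity phosphatase family, at -1.74, -2.12 and -2.68 in CMS and -0.04, -0.45 and -0.19 in control hippocampi. All CMS arrays were below all controls, and the log2 fold change was -1.95 ± 0.269 (SE, limma adjusted p = 0.0135; 0.0562 without control replicate 1). Fmod, the collagen-binding fibromodulin, fell by 1.93 at 1 of its 6 probe sets, and its gene mean of -0.48 was not called. Dync1li1, a light intermediate chain of dynein, fell by 1.65, and in the amygdala alone of the other areas it changed by a like amount, -2.01. Cyp20a1, an orphan cytochrome P450, fell by 1.45 at 1 of 3 probe sets. Hspa8, the constitutive Hsc70 chaperone, fell by 1.40 at 1 of 4 probe sets, with changes of -1.78, -1.16 and -1.46 in amygdala, prefrontal and cerebral cortex and a difference from their mean of 0.07 (adjusted p = 0.717). The remaining members of the 10 were Tshz2 and the immediate early genes Npas4, Egr2, Ier5l and Fos, which are described with their groups.

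Genes that mark the thalamus and the habenula rose together in the CMS hippocampus. Of the 29 measured, 19 (65.5%) were higher and 0 lower at an adjusted p under 0.05, against 4.66% and 24.9% of all genes, and 10 were called higher. Their median log2 fold change was 0.63, against -0.0476 for all genes, and after median centring 17 were higher and 0 lower, against 3.88% and 6.23% of all genes. The summed value of the list ran over 5.79 to 8.26 in the CMS arrays and over -15.5 to -12.6 in the control arrays. The list was drawn up with earlier results of these arrays known and is no independent evidence of its direction.

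Among the called members, Prkcd, a protein kinase C of relay nuclei, read 1.46, 1.72 and 1.52 in CMS and 0.26, 0.24 and 0.53 in control hippocampi as a gene mean (log2 fold change 1.22, adjusted p = 0.00736). Ramp3, a partner of the calcitonin receptor family, read -0.07, -0.12 and -0.06 in CMS and -2.37, -2.26 and -1.41 in control hippocampi (1.93, adjusted p = 0.0147). Gpr151, an orphan receptor of habenular neurons, read 1.55, 0.86 and 1.10 in CMS and -0.21, -0.11 and 0.03 in control hippocampi (1.27, adjusted p = 0.0164). Prkcd and Gpr151 were named after their values were seen. In each of the 3 genes the groups did not overlap, and the CMS values of Ramp3 lay close together while its controls spread. The call of Ramp3 had an adjusted p of 0.0501, 0.0566 and 0.0518 without CMS replicates 2 and 3 and control replicate 2, and that of Gpr151 0.0585, 0.0609 and 0.0582 without CMS replicate 3 and control replicates 1 and 2. Leaving out each array in turn, between 7 and 10 members were called higher.

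Tac2, the precursor of neurokinin B, which medial habenular neurons make, read -0.28, -0.34 and -0.33 in CMS and -1.57, -1.79 and -1.22 in control hippocampi (1.21, adjusted p = 0.0122). Calb2, the calcium-binding protein calretinin, read 0.53, 0.59 and 0.58 in CMS and -0.60, -0.66 and -0.37 in control hippocampi (1.11, adjusted p = 0.00614). Slc17a6, the vesicular glutamate transporter VGLUT2 of thalamic neurons, rose by 0.91 (adjusted p = 0.00391) and was under the fold threshold. All 3 had CMS arrays above every control array. Cbln1, a synapse organizer that rose by 0.72, and Rgs16, a regulator of G-protein signalling that rose by 0.63, were of the same kind and were picked after their values were seen.

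Not every member moved. Named after their values were seen, the habenular nicotinic receptor subunits Chrna3, Chrnb3 and Chrnb4 changed by 0.03, -0.04 and -0.03, and the thalamic factors Gbx2 and Lef1 by -0.06 and -0.01, with no adjusted p under 0.05. Pou4f1, a habenular transcription factor, changed by 0.22 (adjusted p = 0.0565). Since the table is centred, it cannot be read from it whether these genes were detected at all.

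The CMS effect on this list was larger in the hippocampus than the mean of the other areas for 20 of the 29 genes and smaller for 1, where 32.5% of all genes differed in either direction. The list medians in amygdala, prefrontal and cerebral cortex were 0.0122, -0.0757 and -0.0332. How much neighbouring tissue each dissection held was not measured, and the part of it in the results was not tested. Several of these genes also stand in other lists: Calb2 among interneuron, mossy cell and neurogenesis genes, Tac2 among neurogenesis genes, Tcf7l2 among Wnt genes and Zic1 among cerebellar genes.

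**Figure D2:**
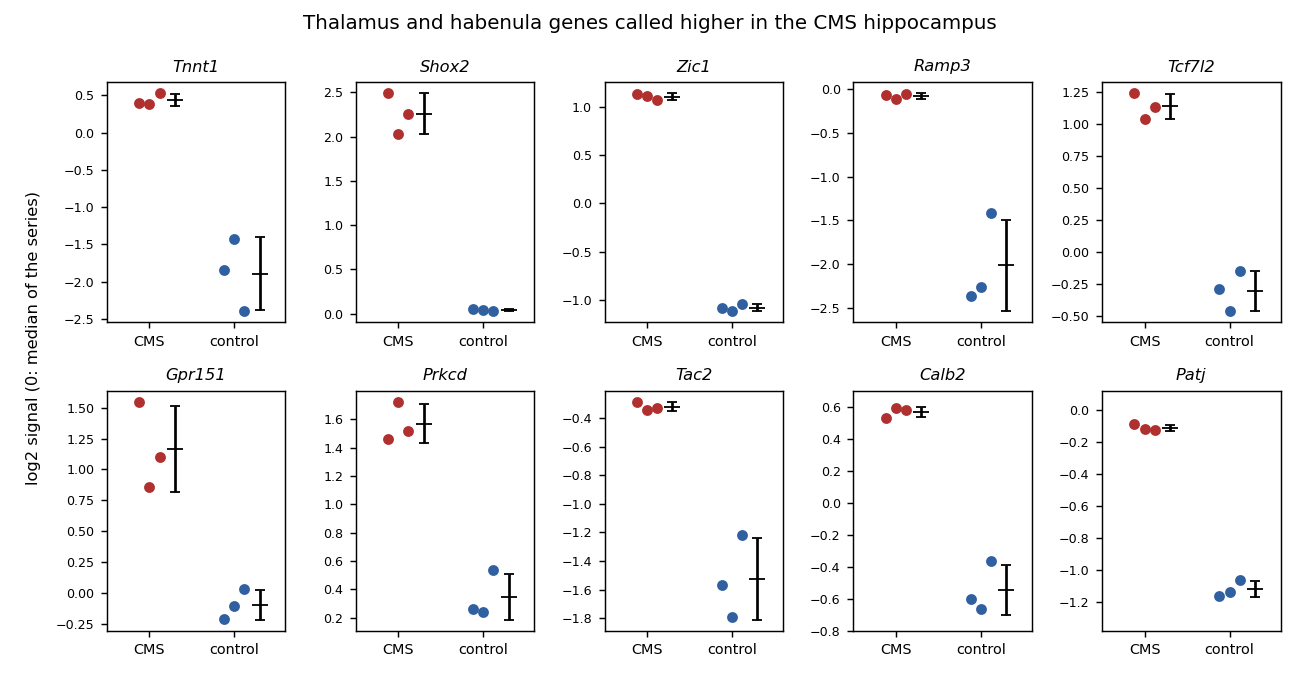
Log2 signal of thalamus and habenula genes in each hippocampal array (points), CMS left and control right of each pair, with the mean and SD of the 3 arrays (bars); 0 is the median of the series. The CMS arrays of Shox2, Zic1 and Tnnt1 lie above their control arrays without overlap.

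Genes of cortical layers and the subiculum were more often lower than higher. Of 20 measured, 9 (45%) were lower and 1 higher at an adjusted p under 0.05, against 24.9% and 4.66% of all genes, with a median of -0.20. After median centring 6 were lower and 0 higher, against 6.23% and 3.88% of all genes. Tshz2, a zinc finger factor of deep cortical and retrosplenial neurons, read -0.82, -0.67 and -0.75 in CMS and 0.24, 0.47 and 0.30 in control hippocampi (-1.09, adjusted p = 0.00569). Ccn2, a secreted matrix protein of the deepest cortical layer, read -3.19, -3.27 and -2.98 in CMS and -2.11, -2.16 and -2.08 in control hippocampi (-1.03, adjusted p = 0.00622). Both had CMS arrays below all controls. The fold change of Ccn2 fell under the threshold with median centring (-0.99), with array weights (-0.93) and without CMS replicate 2 (-0.97).

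Nts, the peptide neurotensin, fell by 0.97 (adjusted p = 0.00252), and Tbr1, a factor of early-born cortical neurons, by 0.52. Cplx3, a complexin also found in the deepest cortical layer and outside the list, fell by 1.03 (adjusted p = 0.0237, and 0.067, 0.0783, 0.0792 and 0.061 without CMS replicates 1 and 3 and control replicates 1 and 2). These 3 were named after their values were seen. The CMS effect of Ccn2 minus that of the other areas was -1.53 (adjusted p = 2.68e-10) and that of Cplx3 -1.61 (adjusted p = 0.000546). Of the 20 list members, 9 were lower than the other areas and 2 higher, where 32.5% of all genes differed in either direction.

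Immediate early genes are transcribed within minutes of neuronal firing through factors such as CREB and SRF, with no need of new protein, and their RNA marks neurons that were recently active. They code for transcription factors (Fos, Egr2, Npas4, Junb), for effectors at the synapse (Arc) and for phosphatases that end the signal (Dusp1). CREB binds the letters TGACG, the core of the cAMP response element, and SRF binds the CArG box. The promoters of 3 of the genes that changed most are shown for their TGACG letters and, in Egr2, a CArG box, in capitals, on either strand. The windows hold 300 bases around the start of transcription and are from RefSeq for GRCm38.p6, at chr12:85473640-85473939 (+) for Fos, chr10:67537619-67537918 (+) for Egr2 and chr19:4989922-4990221 (-) for Npas4.
Fos: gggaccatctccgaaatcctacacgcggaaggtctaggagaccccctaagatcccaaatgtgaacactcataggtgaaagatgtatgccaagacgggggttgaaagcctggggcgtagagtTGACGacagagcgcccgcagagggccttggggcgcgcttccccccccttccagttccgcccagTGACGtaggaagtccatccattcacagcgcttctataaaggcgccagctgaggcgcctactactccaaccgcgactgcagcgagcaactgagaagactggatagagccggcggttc
Egr2: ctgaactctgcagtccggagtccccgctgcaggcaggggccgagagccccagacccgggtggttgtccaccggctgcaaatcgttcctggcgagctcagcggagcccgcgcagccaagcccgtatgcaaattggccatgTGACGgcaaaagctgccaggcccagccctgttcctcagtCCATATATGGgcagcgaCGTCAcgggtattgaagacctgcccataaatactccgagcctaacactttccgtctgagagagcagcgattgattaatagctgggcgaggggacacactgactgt
Npas4: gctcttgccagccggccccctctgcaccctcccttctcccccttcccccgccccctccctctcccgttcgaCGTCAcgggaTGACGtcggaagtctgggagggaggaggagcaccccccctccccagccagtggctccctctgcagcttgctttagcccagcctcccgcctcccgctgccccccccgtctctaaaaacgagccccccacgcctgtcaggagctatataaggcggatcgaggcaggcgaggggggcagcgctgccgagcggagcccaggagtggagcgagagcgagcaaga

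Counted from the start to the first base of each match, Fos held the core letters at -129 and -66, Npas4 at -179 and -169, and Egr2 at -111 and -55 with a CArG box at -72. The windows shown of Fos and Npas4 held no CArG box, and the window of Ier5l, which was examined as well, held neither element. The Egr2 window is 1 of 5 listed for the gene. The letters TGACG stood in 35 of the 59 windows (59.3%) of the 41 immediate early genes with a listed promoter and in 20.8% of all 32851 windows, and a CArG box in 8.47% and 1.63%. The 5 windows with a CArG box belong to 2 genes, and 4 of them are windows of Egr2. None of these matches overlaps another in the windows shown. A match is a description of the sequence and no sign of binding.

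In the CMS hippocampus 34 of 51 immediate early genes (66.7%) were lower and 0 higher at an adjusted p under 0.05, against 24.9% and 4.66% of all genes, and 5 were called lower. The median was -0.23. After median centring 23 were lower and 0 higher, against 6.23% and 3.88% of all genes. The number lower was 20, 18 and 16 without CMS replicates 1, 2 and 3, and 20, 22 and 34 without control replicates 1, 2 and 3. Summed over the list, the CMS arrays ran from -24.1 to -20.7 and the control arrays from -5.62 to -2.47.

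Npas4, a factor induced only by neuronal activity, read -2.04, -1.58 and -2.35 in CMS and -0.18, -0.24 and -0.22 in control hippocampi. The controls lay within 0.1 of each other and all CMS arrays were over 1 log2 unit below them. The log2 fold change was -1.77 ± 0.2 (SE, limma adjusted p = 0.0106). Fos, the partner of Jun in the AP-1 complex, read -2.14, -1.97 and -2.07 in CMS and -0.69, -0.78 and -0.62 in control hippocampi (-1.36 ± 0.0594, adjusted p = 0.00297). Arc, which controls the removal of AMPA receptors from synapses, read -0.78, -0.73 and -0.82 in CMS and 0.36, 0.41 and 0.46 in control hippocampi (-1.18 ± 0.0348, adjusted p = 0.00169). Neither gene overlapped between groups.

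Egr2, a zinc finger factor, had gene means of -2.75, -2.67 and -2.50 in CMS and -1.08, -1.25 and -1.42 in control hippocampi (-1.39, adjusted p = 0.0064), and both of its probe sets were called lower. Ier5l, a nuclear protein related to Ier5, read -1.54, -1.22 and -1.36 in CMS and -0.24, -0.66 and 0.00 in control hippocampi (-1.07, adjusted p = 0.0227). The controls of Ier5l were the most spread of the 5. At its probe set 1455881_at, which fell by 1.40, the adjusted p was 0.0668 after quantile normalization, 0.0671 after median centring, and 0.069, 0.0865, 0.099 and 0.094 without CMS replicates 1, 2 and 3 and control replicate 1.

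Members under the fold threshold and named after their values were seen were Junb, an AP-1 component (-0.77, adjusted p = 0.00627), Dusp1, a MAP kinase phosphatase (-0.71, adjusted p = 0.00569), and Egr1, a zinc finger factor of synaptic plasticity (-0.51, adjusted p = 0.011). Egr4, a relative of Egr1, changed by -0.02, and Nptx2, a secreted pentraxin, by 0.30, neither with an adjusted p under 0.05.

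The decrease was not particular to the hippocampus. The list medians in amygdala, prefrontal and cerebral cortex were -0.115, -0.309 and -0.397. Against the mean of these areas, the CMS effect in the hippocampus was higher for 13 genes and lower for 11. Of all genes, 32.5% differed in either direction. Arc changed by -0.97, -1.2 and -1.71 in amygdala, prefrontal and cerebral cortex, and its difference was 0.11 (adjusted p = 0.485). Npas4 differed by -0.58 (adjusted p = 0.0671), whereas Egr2 fell further in the hippocampus by 0.66 (adjusted p = 5.63e-05) and Fos by 0.35 (adjusted p = 0.000676). These 2 differences did not hold under another scaling: after quantile normalization of all arrays they were -0.04 (adjusted p = 0.858) for the probe set of Egr2 named among the 10 largest decreases and 0.26 (adjusted p = 0.0284) for that of Fos.

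**Figure D3:**
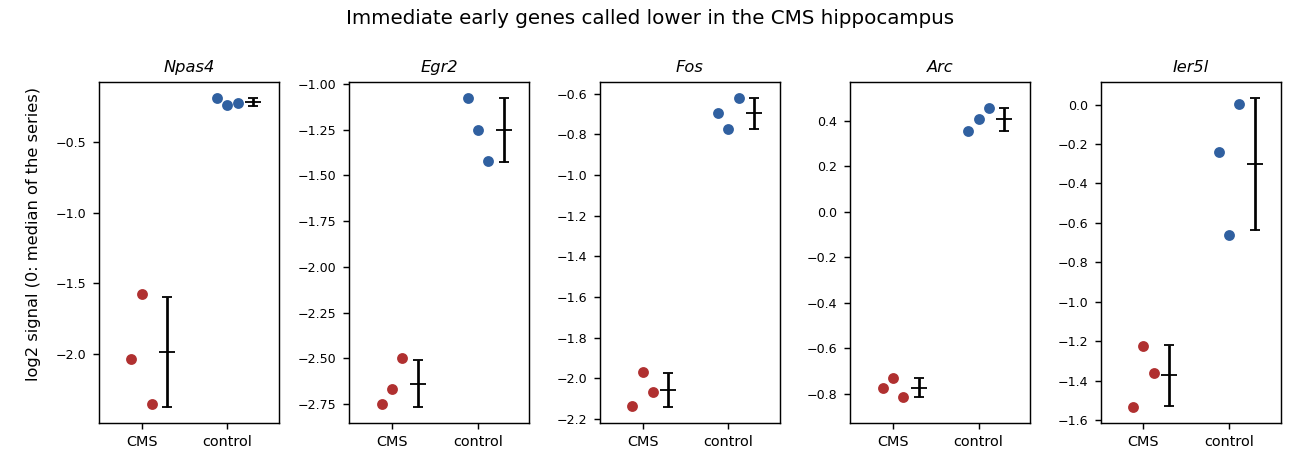
Log2 signal of the 5 immediate early genes called lower, per hippocampal array (points), CMS left and control right, with the mean and SD of 3 arrays (bars); 0 is the median of the series and each panel has its own axis. CMS and control arrays do not overlap in any of the 5 genes, and CMS minus control is -1.07 for Ier5l and -1.77 for Npas4.

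The circadian clock is a feedback loop in which CLOCK and ARNTL drive Per, Cry, Nr1d, Dbp and Ciart genes through E-boxes of the letters CACGTG, and the PER and CRY proteins repress their own drivers. NFIL3 binds the same sites as DBP with opposite effect. The promoter of Ciart, a repressor of the loop, is shown for its E-boxes (capitals; chr3:95882179-95882478, minus strand, RefSeq GRCm38.p6).
Ciart: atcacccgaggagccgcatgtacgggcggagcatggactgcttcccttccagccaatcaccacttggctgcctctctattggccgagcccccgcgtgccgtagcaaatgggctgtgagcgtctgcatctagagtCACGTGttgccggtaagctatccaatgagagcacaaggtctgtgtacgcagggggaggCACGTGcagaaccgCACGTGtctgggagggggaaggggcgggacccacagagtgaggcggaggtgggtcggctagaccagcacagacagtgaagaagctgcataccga

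The Ciart window holds 3 E-boxes, at -116, -58 and -44 from the start. An E-box stood in 6 of the 27 windows (22.2%) of 18 clock genes and in 7.15% of all windows; the windows of Dbp and Nfil3 had none.

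Of 21 clock genes, 10 (47.6%) were higher and 4 (19%) lower at an adjusted p under 0.05, against 4.66% and 24.9% of all genes, and 0 were called at the fold threshold. The median was 0.17, and 8 were higher and 2 lower after median centring. The number higher was 5, 4 and 4 without CMS replicates 1, 2 and 3, and 5, 4 and 9 without control replicates 1, 2 and 3. Ciart read -0.71, -0.47 and -0.65 in CMS and -1.76, -1.80 and -1.08 in control hippocampi (0.94, adjusted p = 0.0361). Nfil3 read -1.16, -0.93 and -0.81 in CMS and 0.02, 0.06 and 0.00 in control hippocampi (-0.99, adjusted p = 0.00752). Both genes had groups that did not overlap, and control replicate 3 of Ciart stood above the other controls; without it the log2 fold change of Ciart was 1.17. The adjusted p of Ciart was 0.0571 after quantile normalization, 0.064 after median centring, 0.0833, 0.105 and 0.105 without CMS replicates 1, 2 and 3, and 0.107 and 0.099 without control replicates 1 and 2.

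On the side of the genes driven by E-boxes, Dbp, a transcription factor of clock output, read -0.49, -0.42 and -0.41 in CMS and -0.92, -0.91 and -0.74 in control hippocampi (0.42, adjusted p = 0.0136). Per2 rose by 0.53 (adjusted p = 0.0461), Nr1d2, the nuclear receptor REV-ERB beta, by 0.41 (adjusted p = 0.00622) and Per3 by 0.29 (adjusted p = 0.00727). Arntl, the positive factor, fell by 0.26 (adjusted p = 0.00803). Per1 changed by -0.11 (adjusted p = 0.0309; 0.267 after quantile normalization). The adjusted p of Per2 was between 0.0534 and 0.133 after leaving out any single array. Other than Dbp, these were named after their values were seen.

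Per2, Nfil3 and Ciart had effects of the same sign in all other areas. Per2 rose by 0.57, 0.48 and 0.46 in amygdala, prefrontal and cerebral cortex, with a difference of 0.02 (adjusted p = 0.897). Nfil3 changed by -0.42, -1.19 and -1.23 there (difference -0.05, adjusted p = 0.841) and Ciart by 0.67, 0.51 and 0.67 (difference 0.32, adjusted p = 0.159). Of the 21 genes, 4 had a higher and 2 a lower effect in the hippocampus, where 32.5% of all genes differed in either direction. The hour at which tissue was taken is not given in the sources used here.

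**Figure D4:**
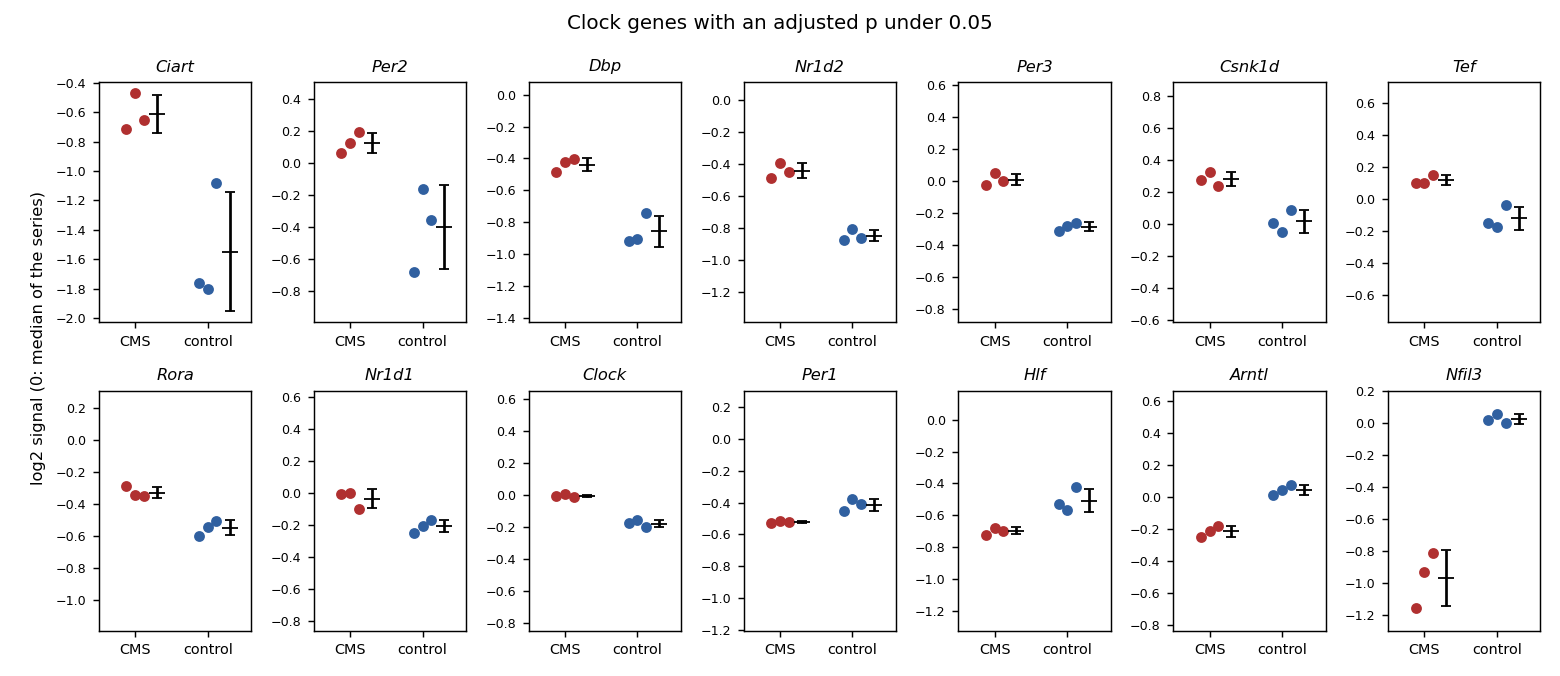
Log2 signal of the clock genes with an adjusted p under 0.05, per hippocampal array (points), CMS left and control right, with the mean and SD of 3 arrays (bars); 0 is the median of the series. Nfil3 is lower with CMS by 0.99, whereas Ciart, Per2 and Dbp are higher by 0.94, 0.53 and 0.42.

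Among long noncoding RNAs retained in the nucleus, 5 of 9 measured (55.6%) were higher and 0 lower at an adjusted p under 0.05, against 4.66% and 24.9% of all genes, with a median of 0.39. After median centring 6 were higher, against 3.88% of all genes. Malat1, an abundant RNA of nuclear speckles, read 0.75, 0.79 and 0.73 in CMS and -0.04, -0.05 and -0.04 in control hippocampi as the mean of its probe sets (0.80 ± 0.0197, adjusted p = 0.0012). The groups were more than 10 times their spread apart, yet the probe sets of Malat1 ranged from 0.29 at 1438403_s_at to 1.49 at 1418189_s_at. Miat, an RNA that binds splicing factors, changed by 0.56 (adjusted p = 0.0519). Meg3, a maternally expressed RNA of the Dlk1 imprinted domain named after its values were seen, rose by 0.55 (adjusted p = 0.00516). The CMS effect exceeded the mean of the other areas for 6 of the 9 and fell short for 0. Of all genes, 32.5% differed in either direction. The excess was 0.49 for Malat1 (limma adjusted p = 2.16e-07) and 0.51 for Meg3 (adjusted p = 1.1e-07).

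Among the probe sets with no gene symbol, 1447329_at read 2.37, 2.38 and 2.36 in CMS and -1.57, -1.56 and -1.58 in control hippocampi. The arrays of each group nearly coincided, and the log2 fold change was 3.94 ± 0.0114 (SE, limma adjusted p = 2.55e-07). In amygdala, prefrontal and cerebral cortex this probe set changed by 7.21, 2.75 and 4.78, and 1420310_at, which rose by 3.09 in the hippocampus, by 6.43, 1.28 and 4.76. The largest decreases without a symbol were -1.41 at 1439290_at and -1.04 at 1426604_at. The 126 probe sets without a symbol that were called higher were also higher in the amygdala in 34.1%, the prefrontal cortex in 3.17% and the cerebral cortex in 30.2% of cases, against 11.4%, 2.78% and 5.49% of all probe sets. For the 119 that match 1 gene the shares were 20.2%, 3.36% and 23.5%. The 43 called lower that match 1 gene were also lower in amygdala in 37.2%, prefrontal cortex in 18.6% and cerebral cortex in 20.9% of cases, against 6.88%, 2.48% and 3.67% of all probe sets.

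No gene mean of the CA1, CA2, CA3 or dentate lists, drawn up to mark the hippocampal fields themselves, was called. At single probe sets, Zbtb20 of the CA1 list (1.47 at 1443471_at, adjusted p = 0.00323), Ptpn5 of the CA2 list (at 2 probe sets, 1.54 at 1425130_a_at, adjusted p = 0.0119) and Kcnq5 of the CA3 list (1.11 at 1441071_at, adjusted p = 0.00104) were called higher. KCNQ5 is a subunit of M-type potassium channels, and Kcnq5 was named after its values were seen. Of 22 dentate granule cell genes, 7 (31.8%) were lower and 1 higher at an adjusted p under 0.05, beside 24.9% and 4.66% of all genes, and the median was -0.16. After median centring 5 of the 22 were lower and 1 higher, against 6.23% and 3.88% of all genes. Sema5b, a transmembrane semaphorin, read -0.83, -0.92 and -0.83 in CMS and -0.21, -0.23 and -0.02 in control hippocampi (-0.70, adjusted p = 0.008), and Trpc6, a cation channel, fell by 0.52. In Sema5b the groups did not overlap.

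For CA1, 5 of 10 genes (50%) were lower and 1 higher, with a median of -0.17, and 3 were lower after median centring, against 6.23% of all genes. Spink8, a protease inhibitor of CA1 pyramidal cells, read 5.30, 5.50 and 5.39 in CMS and 6.08, 6.07 and 6.02 in control hippocampi (-0.66, adjusted p = 0.00679). Ccn3, a secreted matrix protein, fell by 0.51, and Zbtb20, a transcription factor of hippocampal neurons named after its values were seen, rose by 0.47 (adjusted p = 0.00247). The CA2 list had 3 genes higher and 1 lower of 9, led by Ptpn5, the striatal-enriched phosphatase STEP, with -0.52, -0.60 and -0.40 in CMS and -1.41, -1.58 and -1.40 in control hippocampi (0.95, adjusted p = 0.00622). Its effect exceeded that of the other areas by 0.81 (adjusted p = 0.000233). Of 13 CA3 genes, 2 (15.4%) were higher and 2 (15.4%) lower. For CA2 the shares were 33.3% and 11.1%, beside 4.66% and 24.9% of all genes. After median centring CA2 had 3 genes higher and 0 lower and CA3 2 and 0, against 3.88% and 6.23% of all genes. Iyd, an iodotyrosine deiodinase, Coch, the secreted cochlin, and Scgn, the calcium sensor secretagogin of the CA2 list, changed by -0.89, 0.64 and -0.76 with adjusted p of 0.0968, 0.132 and 0.122.

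For adult neurogenesis 4 of 26 genes (15.4%) were higher and 5 (19.2%) lower at an adjusted p under 0.05. The shares of all genes were 4.66% and 24.9%, and the list median was -0.03. After median centring 4 were higher and 3 lower, against 3.88% and 6.23% of all genes. The 2 called members, Tac2 and Calb2, also stood in the thalamus and habenula list. Eomes, a factor of intermediate progenitors, read 1.23, 0.92 and 0.76 in CMS and 0.03, 0.33 and 0.07 in control hippocampi (0.83, adjusted p = 0.0234; 0.057 after quantile normalization and 0.067, 0.0773 and 0.0512 without CMS replicate 2 and control replicates 1 and 2). Hes5, a Notch target of neural stem cells, read -0.28, -0.16 and -0.27 in CMS and -1.12, -0.82 and -0.97 in control hippocampi (0.73, adjusted p = 0.0112). The 2 genes had no overlap between groups, and were picked after their values were seen, as was Fabp7, the fatty acid-binding protein of radial glia, which was not in the list. Fabp7 read -1.29, -1.30 and -1.25 in CMS and -0.13, -0.25 and -0.15 in control hippocampi (-1.10, adjusted p = 0.00229). Markers of division and of young neurons, also named so, did not pass the test, with changes of -0.08 for Mki67, -0.01 for Top2a and 0.06 for Dcx.

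For hedgehog signalling the study reported positive enrichment in the CMS hippocampus by gene set enrichment analysis. The counts of single genes given here are another measure, and that analysis was not repeated. Hedgehog ligands bind Patched receptors, which frees Smoothened and turns Gli factors into activators, and the pathway maintains neural stem cells of the dentate gyrus. Of 25 pathway genes, 1 (4%) was higher and 0 lower at an adjusted p under 0.05, beside 4.66% and 24.9% of all genes, and 0 were called. The median was -0.03. The ligand Shh read -0.63, -0.77 and -0.81 in CMS and -0.90, -0.997 and -0.76 in control hippocampi (0.14 ± 0.079, adjusted p = 0.204), so that the groups overlapped. Ihh and Dhh, the other ligands, changed by -0.03 and -0.04.

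Ptch1, receptor and target of the pathway, read -0.19, -0.17 and -0.21 in CMS and -0.20, -0.29 and -0.22 in control hippocampi (0.05 ± 0.0263, adjusted p = 0.205). Smo, the signal transducer, changed by -0.07 (adjusted p = 0.14), and the factors Gli1, Gli2 and Gli3 by -0.03, -0.18 and -0.12, none with an adjusted p under 0.05. Evc2, a ciliary protein that acts below Smoothened, read 1.48, 1.52 and 1.2 in CMS and 1.03, 1.00 and 1.07 in control hippocampi (0.36, adjusted p = 0.0436), the only member to pass, and its adjusted p was 0.0676 after median centring and 0.325 after quantile normalization. Hhatl, a relative of the hedgehog acyltransferase, changed by -0.35 (adjusted p = 0.0864). In a wider list of 35 neural genes tied to hedgehog signalling, 6 (17.1%) were higher and 2 (5.71%) lower, with a median of 0.02. The shares of all genes were 4.66% and 24.9%. After median centring 4 were higher and 0 lower, against 3.88% and 6.23% of all genes. Cntfr, the receptor of ciliary neurotrophic factor, rose by 0.61 (adjusted p = 0.0429), and Celsr1, a cadherin of planar polarity, changed by -0.58 (adjusted p = 0.0748).

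Receptors and targets of glucocorticoids, the hormones of the stress axis, gave 1 gene higher and 7 (23.3%) lower of 30, near the 24.9% of all genes. After median centring 1 was higher and 5 were lower of the 30, against 3.88% and 6.23% of all genes. Pdk4, a kinase that restrains pyruvate oxidation, read -0.47, -0.50 and -0.47 in CMS and 0.32, 0.48 and -0.03 in control hippocampi (-0.73, adjusted p = 0.0243), without overlap. Fkbp5, a chaperone induced by glucocorticoids, rose by 0.25 (adjusted p = 0.02; 0.0664 after quantile normalization and 0.0656, 0.0699 and 0.0678 without CMS replicate 3 and control replicates 1 and 2), and the receptor Nr3c1 changed by -0.06 (adjusted p = 0.261); both were named after their values were seen.

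Shares of 4.66% higher and 24.9% lower among all genes, or 3.88% and 6.23% after median centring, stand beside the counts that follow. Of 38 Wnt genes, 4 were higher and 6 lower, and Tcf7l2 was the member called. For neurotrophins and plasticity genes 6 of 18 (33.3%) were higher and 4 (22.2%) lower, and 4 were higher and 1 lower after median centring. Vegfa, the vascular growth factor, changed by 0.44 without passing the test, and Gfra1, a receptor of the GDNF family, rose by 0.37. Bdnf, named after its values were seen, changed by -0.22 (adjusted p = 0.0264; 0.0804 after median centring). Its adjusted p was 0.0736 to 0.081 without CMS replicates 1, 2 and 3 and control replicate 1. Serotonin receptor and transport genes gave 0 higher and 2 lower of 18, and Htr1a, the 5-HT1A receptor, changed by 0.39 (adjusted p = 0.0906). Glutamate receptors and transporters gave 7 higher (30.4%) and 2 lower of 23, or 4 higher and 1 lower after median centring, led by Slc17a6 (0.91) and the kainate receptor subunit Grik1 (0.62, adjusted p = 0.0491).

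GABA receptor genes gave 2 higher and 2 lower of 13, with Gabra2, an alpha subunit, at -0.35 (adjusted p = 0.0111). Of 28 interneuron genes, 4 were higher and 10 (35.7%) lower, 4 in each direction after median centring, and Calb2 was the member called. Genes of synaptic vesicles and exocytosis gave 5 higher and 7 lower of 29, with Baiap3 called. Semaphorin, plexin and neuropilin genes gave 5 higher and 3 lower of 31, and Sema3f, a secreted repellent of axons, read 0.74, 0.65 and 0.69 in CMS and 0.02, 0.03 and 0.00 in control hippocampi (0.68, adjusted p = 0.00252). This mean rests on 1438947_x_at, which was called higher at 2.07 (adjusted p = 0.00123), while the other 2 probe sets of Sema3f both changed by -0.02. Splicing genes gave 7 higher and 4 lower of 37, and Rbm39, a splicing cofactor, rose by 0.45 (adjusted p = 0.00391) as the mean of its probe sets, which ran from -0.20 at 1420982_at to 1.01 at 1439316_at. Taken by 1420982_at alone, Rbm39 changed by -0.20 (adjusted p = 0.259). Potassium channel genes gave 6 higher and 7 lower of 31, with Kcnd3, a subunit of A-type channels, at 0.30 (adjusted p = 0.0477).

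**Figure D5:**
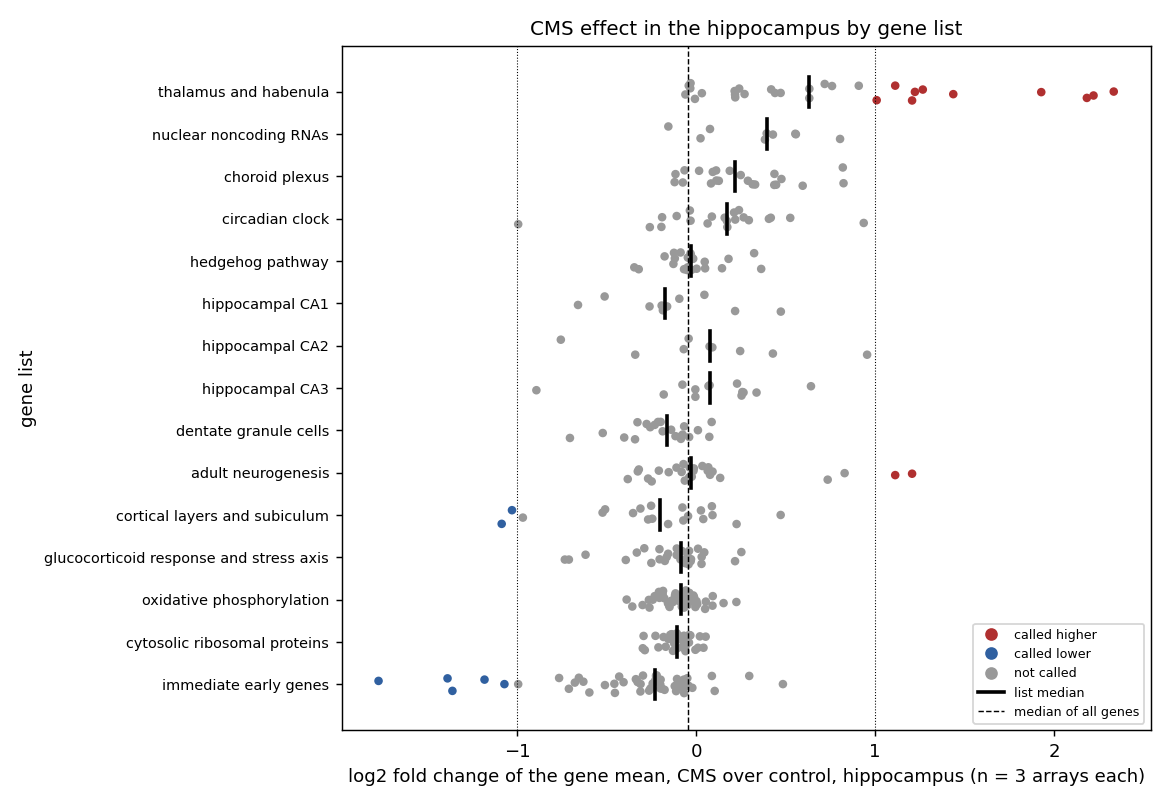
Log2 fold change of CMS over control (x axis) of each measured gene (point) in 15 gene lists (y axis), with the list median (thick bar), the median of all genes (dashed line) and a change of 1 in either direction (dotted lines); red and blue mark genes called higher and lower. The median of the thalamus and habenula list lies at 0.63 and that of the immediate early genes at -0.23, whereas the hedgehog pathway lies at -0.03.

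The choroid plexus makes cerebrospinal fluid. Of 22 of its marker genes, 5 (22.7%) were higher and 1 lower at an adjusted p under 0.05, against 4.66% and 24.9% of all genes, with a median of 0.22, and 0 were called. The summed value of the list ran over 45.2 to 46.1 in the CMS arrays and 38.1 to 41.3 in the control arrays. Otx2, a homeobox factor of the plexus, read 2.78, 3.64 and 2.88 in CMS and 2.57, 2.48 and 1.77 in control hippocampi (0.82, adjusted p = 0.106), and Slc4a5, a bicarbonate transporter, changed by 0.82 (adjusted p = 0.149). Ttr, the thyroxine carrier transthyretin and named after its values were seen, read 3.49, 3.63 and 3.59 in CMS and 3.47, 3.45 and 3.46 in control hippocampi (0.11, adjusted p = 0.0777). It changed by -3.70, -7.15 and -6.91 in amygdala, prefrontal and cerebral cortex. The CMS effect of 19 of the 22 genes was higher in the hippocampus than the mean of those areas, where 32.5% of all genes differed in either direction. The list medians in amygdala, prefrontal and cerebral cortex were 0.0516, -0.185 and -1.54, so the cerebral cortex weighed most in this mean.

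Among immune and vascular genes, S100a8, a calcium-binding protein of neutrophils, read -0.68, -1.01 and -1.002 in CMS and -2.32, -2.32 and -2.33 in control hippocampi (1.43, adjusted p = 0.00569). S100a9, with which it forms calprotectin, read -1.08, -0.89 and -1.34 in CMS and -1.40, -1.39 and -1.41 in control hippocampi (0.30, adjusted p = 0.0994). The CMS arrays of both genes lay above all control arrays. The effect of S100a8 fell short of that in the other areas by 1.95 (adjusted p = 0.000333), the values there being 2.97, 3.57 and 3.60 in amygdala, prefrontal and cerebral cortex, and that of S100a9 by 3.04 (adjusted p = 1.63e-09). Of 18 neutrophil genes 2 were higher and 3 lower, beside 4.66% and 24.9% of all genes. The granule genes Ltf and Ngp, named after their values were seen, changed by -0.07 and -0.03 without an adjusted p under 0.05.

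Vwf, the von Willebrand factor of endothelium, read 0.68, 0.23 and 0.23 in CMS and -0.86, -0.61 and -1.02 in control hippocampi (1.21, adjusted p = 0.0148; 0.0566 without control replicate 1). Its groups did not overlap. The endothelial and mural genes were divided, with 5 higher and 5 lower of 22. The shares of all genes, 4.66% higher and 24.9% lower, stand beside this and the next counts. Cd74, the invariant chain of MHC class II, rose by 0.89 (adjusted p = 0.0184), in a list of 13 antigen presentation genes with 2 higher and 1 lower. Interferon-stimulated genes gave 5 higher and 3 lower of 28, among them Ifit3 (0.62, adjusted p = 0.0385). Inflammatory cytokine and NF-kB genes gave 0 higher and 8 (27.6%) lower of 29, near the share of all genes. After median centring 2 of the 29 were lower, near the 6.23% of all genes. Il18, the cytokine interleukin-18, read -0.59, -0.59 and -0.58 in CMS and -0.19, -0.16 and -0.06 in control hippocampi (-0.45, adjusted p = 0.00665), and Nfkbia, the inhibitor of NF-kB, fell by 0.38 (adjusted p = 0.0172).

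Glial lists were near the background of all genes in the lower direction, at 5 of 22 astrocyte, 5 of 26 oligodendrocyte and 4 of 24 microglial genes, and 1, 3 and 1 of them were higher. Agt, the angiotensinogen made by astrocytes, read 0.94, 1.06 and 1.12 in CMS and 0.18, 0.33 and 0.52 in control hippocampi (0.69, adjusted p = 0.0158). Its groups did not overlap. Aspa, the aspartoacylase of oligodendrocytes, fell by 0.40 (adjusted p = 0.0207), and Mrc1, a mannose receptor of brain macrophages, by 0.37 (adjusted p = 0.0263). Meningeal genes gave 0 higher and 5 (23.8%) lower of 21, led among those that passed by Ogn, the proteoglycan osteoglycin (-0.73, adjusted p = 0.0274). Col6a3, a collagen chain, read 0.28, 0.99 and 1.16 in CMS and 0.01, 0.03 and 0.00 in control hippocampi (0.80, adjusted p = 0.0579). Ependymal genes gave 0 higher and 2 lower of 20, erythroid genes 0 and 3 of 6, and striatal genes 1 and 1 of 19. Hypothalamic genes gave 2 and 4 of 24, and cerebellar and hindbrain genes 4 and 6 of 16. All counts of this paragraph stand beside 4.66% higher and 24.9% lower among all genes. Magel2, an imprinted gene of the hypothalamus, read 0.50, 0.74 and 0.63 in CMS and -0.10, -0.17 and 0.00 in control hippocampi (0.71, adjusted p = 0.00962).

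Small decreases were widespread among genes of basic cell functions, as they were among all genes, and fewer passed after median centring. Of 57 subunits of oxidative phosphorylation, 22 (38.6%) were lower and 1 higher, with a median of -0.0856, and 8 were lower after median centring. Ndufa6, of complex I, fell by 0.39 (adjusted p = 0.0122) and Uqcrh, of complex III, by 0.36 (adjusted p = 0.00677). Against the mean of the other areas the effect was lower for 32 of the 57 and higher for 2, where 32.5% of all genes differed in either direction. That share was not split by direction. The shift of the hippocampal median by -0.0465 bears on this count, which was not repeated after median centring. Cytosolic ribosomal proteins gave 15 lower (40.5%) and 0 higher of 37, with Rpl11 at -0.30 and Rps20 at -0.29. After median centring 3 of the 37 were lower, near the 6.23% of all genes. Heat shock and folding genes gave 11 lower (34.4%) and 0 higher of 32, and 7 lower after median centring, with Sdf2l1, a partner of endoplasmic reticulum chaperones, at -0.59 and Hspa8 at -0.43. These shares stand beside 24.9% of all genes, or 6.23% after median centring.

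Many of the changes under the fold threshold needed all 6 arrays to pass. Leaving out any single array took the adjusted p of Gfra1 to between 0.0607 and 0.128 and that of Grik1 to between 0.0788 and 0.133. For Cntfr (0.0664 to 0.122), Aspa (0.0503 to 0.0721), Mrc1 (0.0517 to 0.0797) and Pdk4 (0.0557 to 0.0808) this held for each array other than control replicate 3. The same was so for Ifit3 (0.0516 to 0.109) except without control replicate 2, for Evc2 (0.0687 to 0.119) except without CMS replicate 3, for Kcnd3 (0.0873 to 0.133) except without CMS replicate 1 and for Rpl11 (0.0605 to 0.106) except without CMS replicate 2. Cd74 reached 0.0557 to 0.0663 without CMS replicates 2 and 3 and control replicate 1, and Agt 0.0545 to 0.0587 without CMS replicates 2 and 3 and control replicate 2. Ogn reached 0.067 to 0.0882 without CMS replicates 2 and 3 and control replicates 1 and 2, and Nfkbia 0.0527 to 0.062 without CMS replicates 1, 2 and 3 and control replicate 1. In 1 fit of all 24 arrays, which shares the spread of all areas, the adjusted p was 0.192 for Magel2, 0.116 for Agt, 0.0814 for Mrc1 and 0.071 for Sdf2l1.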

How the data were processed

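RNA was labelled and hybridised to Affymetrix mouse genome arrays. The authors summarized them with GCRMA in GeneSpring GX (version not given in the sources used here) and normalized to a baseline. The deposited values are log2 values, each probe set having its series median at 0 (largest absolute median 5e-07), so they hold no absolute level or signal over background, and the number of arrays limits the precision. Of 45037 probe sets, 34945 matched 1 symbol in the platform annotation, 932 several and 9160 none. Probe sets of 1 gene were averaged (18193 genes).

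CMS was compared with control by limma 3.58.1 (R 4.3.3), two-sided, with Benjamini-Hochberg adjustment over all probe sets or genes. A contrast in a fit of 8 group means compared the hippocampal effect with the mean of the other 3 areas. An exact permutation test of 3 against 3 arrays cannot go below 0.1 and was not used. Figures were drawn with matplotlib 3.10.9.

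The 42 gene lists (1011 of 1095 memberships measured) and the genes named were chosen with earlier results of these data known. Named were the 10 largest increases and decreases among called probe sets without overlap, up to 4 called members of each list or else the 2 with the largest change, S100a8, S100a9, the ligands, receptors and Gli factors of the hedgehog pathway, and genes whose promoter was examined. Others were named after their values were seen, as is said beside them. Lists are described by counts, without a test. The alternatives were the t-test of the methods, a fit of all arrays, quantile normalization, median centring, trend and robust variances, array weights, a filter, other thresholds, genes, 1 probe set per gene, a replicate block and leaving out each array. The fits were tested on simulated data. Promoter sequences are from RefSeq, GRCm38.p6.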

Additional observations from a re-analysis of the deposited data

Results flagged for a closer look

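The difference between the CMS effect in the hippocampus and the mean effect of the other 3 areas was over 1 on the log2 scale, with a limma adjusted p under 0.05, for 24 of the probe sets and genes chosen by the naming rule and for 8 named after their values were seen. Of the 10 largest increases, the probe sets of Shox2 (4.10), Tcf7l2 (3.22), Patj (3.01), Baiap3 (2.96), Ptbp1 (2.84), Synpo2 (2.47), Zic1 (2.17) and Tnnt1 (2.02) rose more in the hippocampus. Of the 10 largest decreases, Fmod (-2.01), Dusp28 (-1.48) and Ier5l (-1.12) fell more. After quantile normalization of all arrays the differences of Dusp28 and Ier5l were -0.95 and -0.65, under that size. Both sets of 10 were chosen for the size of their hippocampal change, which favours such differences.

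Among list members, taken as gene means, the effect was higher in the hippocampus for Tac2 (1.90), Ramp3 (1.77), Calb2 (1.47) and Slc17a6 (1.15) of the thalamus and habenula list, Otx2 (1.26) and Slc4a5 (1.03) of the choroid plexus, Magel2, an imprinted gene of the hypothalamus (1.54), and Agt (1.09). It was lower for S100a9 (-3.04), S100a8 (-1.95), Ccn2 (-1.53), Ogn (-1.19) and Rarb, a retinoic acid receptor of the striatum (-1.12). For Rarb the CMS and control hippocampi differed by -0.38 (adjusted p = 0.361), and the effects in amygdala, prefrontal and cerebral cortex were 0.50, -0.13 and 1.83. Of those named after their values were seen, the effect was higher in the hippocampus for Ttr (6.03), Cbln1 (1.52), Gpr151 (1.49) and Prkcd (1.28), and lower for Ngp (-1.79), Cplx3 (-1.61), Ltf (-1.59) and 1420310_at, which has no symbol (-1.06).

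Control probe sets of transcripts present in all tissue, which enter no comparison of the report, were higher in the CMS arrays without overlap, by 0.625 for the transferrin receptor, 0.197 for pyruvate carboxylase, 0.165 for beta-actin and 0.0909 for Gapdh, while the added hybridisation controls were lower by 0.366. The difference between 3′ and 5′ probe sets, a measure of RNA integrity, changed with CMS by -0.0519 for beta-actin, -0.0638 for Gapdh and -0.161 for the transferrin receptor. Its SD in CMS and control arrays was 0.0463 and 0.0157 for beta-actin and 0.00976 and 0.0314 for Gapdh. For the transferrin receptor the SDs of 0.293 and 0.18 were larger than the change. With 3 arrays per group, single outlying arrays were not tested for. Control replicate 3 had the lowest array weight of limma, 0.242 against 0.625 to 3.83 for the other 5 arrays, and the lowest mean correlation with its own group, 0.873 against 0.895 to 0.925. Without it the counts of probe sets called were 248 higher and 50 lower.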

How the results depend on the processing

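Under 18 alternatives, 2322 of 2575 values of the genes and probe sets named kept their direction and side of the threshold, 81 lost the call, 137 gained it and 35 turned. A value under the fold threshold counted as kept also where its adjusted p rose over 0.05. Of the gains, 55 came from the t-test and 57 from limma without the fold threshold. Lct turned to 0.157 after quantile normalization (adjusted p = 0.00257), against -0.14 as deposited. The other 34 had an adjusted p of 0.05 or more where they turned: with quantile normalization Chrnb3 (0.00129), Chrnb4 (0.0107), Dhh (0.0102), Egr4 (0.0243), Gli1 (0.0131), Ihh (0.0191), Lef1 (0.0393), Ngp (0.0192), Top2a (0.00722) and Ttr (-0.103), with median centring Chrnb4 (0.00942), Dhh (0.00327), Egr4 (0.0194), Gli1 (0.0108), Ihh (0.0148), Lef1 (0.0338), Ngp (0.0105) and Top2a (0.0279), with array weights Rarb (0.066), with the filter Dsp (-0.0405), and with 1 probe set per gene Rbm39 (-0.204), Chrna3 (-0.0114), Dsp (-0.0405) and Lef1 (0.0368). Leaving out each array, the values of those that turned ran over -0.759 to 0.0588 for Bst2, -0.00263 to 0.0625 for Chrna3, -0.0747 to 0.165 for Dsp, -0.0298 to 0.00808 for Lef1 and -0.0603 to 0.0555 for Top2a. The number of probe sets called higher (246) was 162 after quantile normalization, 2048 by the t-test of the methods and 2557 by limma without the fold threshold, 26 over genes and 55 with a replicate block. The number called lower (47) was 31 after median centring, 79 with array weights, 17483 by the t-test and 15757 by limma without the fold threshold, 20 over genes and 10 with the block. At the adjusted p alone, the number higher (2557) was 1667 after quantile normalization, 5049 with array weights, 182 by treat against a fold of 1.2, 847 over genes and 198 with the block. The number lower (15757) was 2265 after quantile normalization, 3234 after median centring, 2198 after the filter, 59 by treat, 4539 over genes and 151 with the block. Thalamus and habenula genes called higher (10) were 18 by the t-test and 19 by limma without the fold threshold, and 0 with the block. Immediate early genes lower were 5 by treat and 0 with the block, and clock genes higher were 0 by both. The number of probe sets whose effect differed between the hippocampus and the other areas (344) was 201 after quantile normalization, and 942, 660 and 615 against the amygdala, prefrontal cortex and cerebral cortex alone, where the differences of Orly (-2.39), Ntmt1 (-1.60) and Dync1li1 (0.366) turned against the amygdala and that of Hspa8 (-0.238) against the prefrontal cortex. After quantile normalization of all arrays those of Orly (-0.377), Ntmt1 (-0.424) and Fos (0.255) turned. Over all probe sets, same-numbered arrays of the 2 groups did not deviate together (r of 0.00144, -0.0262 and 0.0135). This cannot exclude a shared handling that touched part of the probe sets. The block leaves fewer degrees of freedom. The cause of the shifts was not tested. Leaving out each array, the called counts ran over 143 to 248 higher and 29 to 50 lower, those at the adjusted p alone over 892 to 2995 higher and 1972 to 16843 lower, thalamus and habenula genes over 7 to 10, immediate early genes over 16 to 34, clock genes over 4 to 9 and the differences between areas over 353 to 382. Only spread between 3 arrays a group, and no signal over background, bounds what could be detected.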
